A study of Mus musculus with 12 samples.

Results

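The 10 genes described here are imprinted regulators of embryonic and placental growth, genes that are transcribed mainly from the chromosome of only one parent. They were taken by symbol from a count table of 24421 gene rows, and all 10 were present and passed the filter on low counts that kept 14810 rows. In the textbook account 5 of them are expressed from the paternal copy (Igf2, Dlk1, Peg3, Plagl1 and Mest) and 5 from the maternal copy (H19, Igf2r, Meg3, Cdkn1c and Grb10). RNA was sequenced from mouse embryos with a neural crest-specific alteration of Eftud2, which encodes a GTPase of the U5 particle of the spliceosome. The 12 libraries formed 4 groups of 3, all of strain C57Bl/6: Eftud2+/- embryos, which the labels name as the control, and Eftud2-/- embryos, each taken on embryonic day 9.0 (E9.0) or 9.5 (E9.5). No group was wild type, and no treatment was given. According to the labels the genotype was read from the yolk sac and the RNA came from heads kept in RNAlater, while other label fields give neural crest cells or cranial nerve ganglia as the material. The Cre driver and the number of embryos in a library were not stated. A head holds many cells that are not neural crest, so that fewer cells of a type and less RNA per cell cannot be told apart here. The labels number the libraries of a group as replicates without saying that they came from separate embryos or pools, so the p-values measure the spread between libraries, which may be technical.

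Imprinted genes lie in clusters in which DNA methylation laid down in the egg or sperm decides which parental copy is read. Many paternally expressed members promote growth, as Igf2, a secreted growth factor, does, and many maternally expressed members restrain it, as do Igf2r, a receptor that takes Igf2 to the lysosome, Cdkn1c, an inhibitor of cyclin-dependent kinases, and Grb10, an adaptor that dampens insulin and IGF receptor signalling. H19 and Meg3 are long noncoding RNAs of the Igf2 and Dlk1 clusters, Plagl1 and Peg3 are zinc finger proteins, Dlk1 is a Notch-like membrane protein, and Mest belongs to the alpha/beta hydrolase family. In midgestation embryos these genes are known for high levels in mesoderm, mesenchyme and vessels, and counts per gene do not tell the 2 parental copies apart.

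Libraries held 13914543 to 31172708 counts. The 45S ribosomal RNA row Rn45s took 37.4% of the reads counted in heterozygous E9.0 replicate 1 and 4.40% to 16.2% of those of the other 11 libraries, and the TMM scaling factor of that library was 0.664 against 0.924 to 1.11. Both measures separated the stages: Rn45s took 6.05% to 37.4% at E9.0 and 4.40% to 5.90% at E9.5, and the scaling factors were 0.664 to 1.05 and 1.09 to 1.11. Changes with stage described below cannot be told apart from differences in dissection, preparation or sequencing that go with stage. Levels are given as CPM, the count of a gene relative to the TMM-scaled library size. Eftud2, the targeted gene, lay at 275 to 302 CPM in heterozygous and 232 to 236 CPM in homozygous libraries at E9.0, and at 248 to 264 against 221 to 226 CPM at E9.5, without overlap at either stage. Its row counts the whole gene, not the altered part alone. On an axis that runs from 0 at the heterozygous E9.0 mean to 1 at the heterozygous E9.5 mean over 14800 other genes, the homozygous libraries lay at 0.05 to 0.17 at E9.0 and at 0.93 to 1.02 at E9.5. The heterozygous libraries lay at -0.04 to 0.05 and 0.98 to 1.02 on this axis, which their own means define.

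Per kilobase of exon, H19 was the most abundant member in all 4 groups, followed by Mest and then Grb10. In heterozygous E9.0 libraries the means were 672 ± 38.6 CPM per kb for H19, 394 ± 16.2 for Mest and 139 ± 4.43 for Grb10 (SD, n = 3 each). Igf2 followed at 81.0 ± 11.9 CPM per kb, and Cdkn1c, Peg3 and Igf2r lay between 37.1 and 48.1. Dlk1, at 7.94 ± 1.66, Meg3, at 4.26 ± 0.84, and Plagl1, at 2.84 ± 0.80 CPM per kb (SD, n = 3 each), closed the order. The ranges of neighbouring genes overlapped for Cdkn1c and Peg3 and for Meg3 and Plagl1, and not for the other neighbours in that group. At E9.5 Cdkn1c stood just below Grb10 in both genotypes, with libraries that overlapped, Igf2r stood above Peg3, and Meg3 was last. Within a group the members' extremes often fell in the same library: heterozygous E9.0 replicate 1 was the highest of its group for 10 of 10 members and replicate 3 the lowest for 9. Homozygous E9.0 replicate 1 was the highest for 8, and heterozygous E9.5 replicate 2 the lowest for 7.

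**Figure D1:**
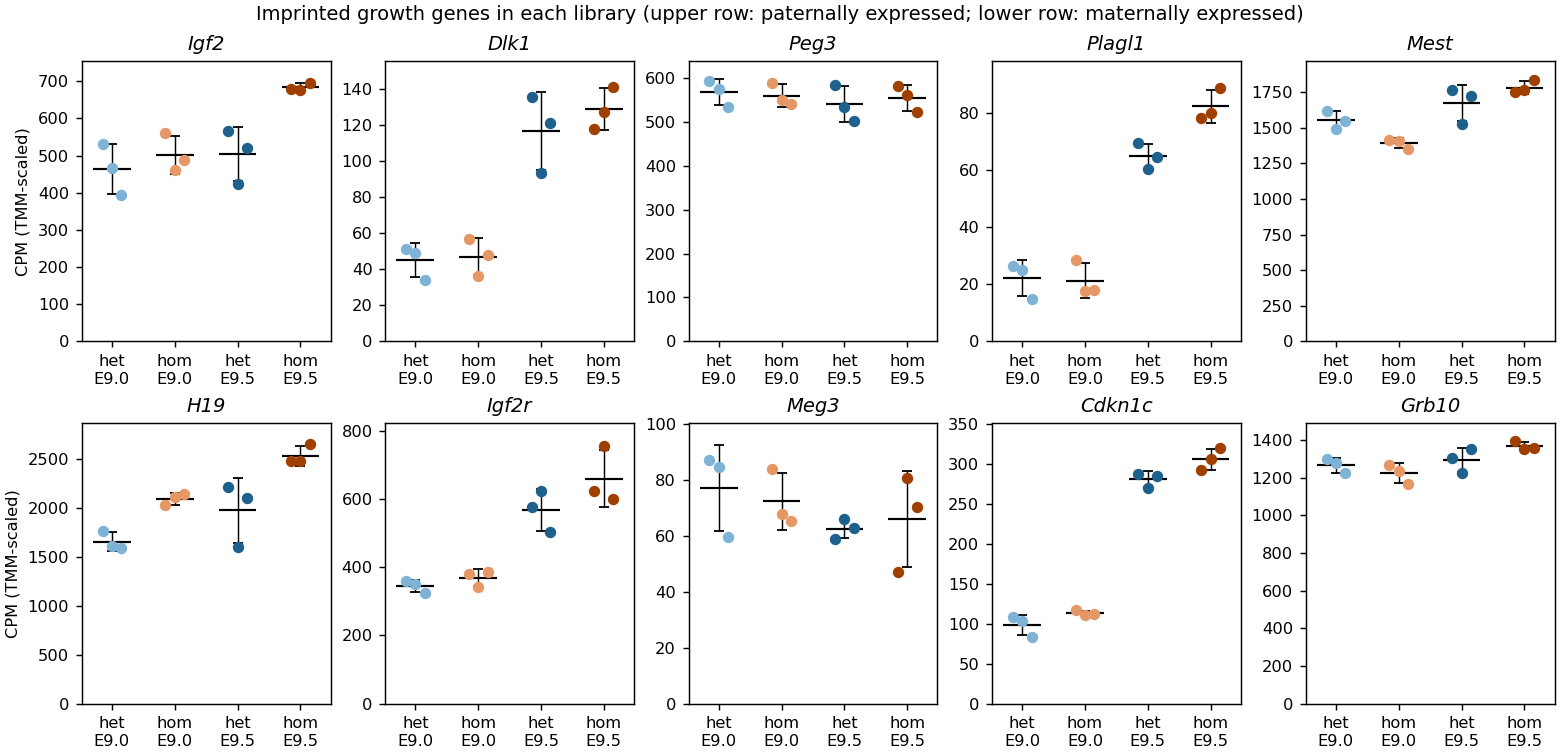
CPM (TMM-scaled, linear axis from 0) of the 10 genes in each of the 12 libraries, with paternally expressed genes in the upper row; points are libraries, horizontal lines group means and bars SD (n = 3). Cdkn1c, Dlk1, Plagl1 and Igf2r are higher at E9.5 in both genotypes without overlap, whereas Peg3 and Meg3 overlap in every comparison.

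H19, Igf2, Meg3 and Mest host microRNAs, small RNAs of about 22 bases that pair with target transcripts through their seed. The mature sequences (RefSeq, GRCm38.p6) are shown because this assay counted the host transcripts and not the processed microRNAs; they are written 5′ to 3′, with the seed, bases 2 to 8, in capitals. The hosts are H19 for miR-675, Igf2 for miR-483, Mest for miR-335 and Meg3 for miR-770.
mmu-miR-675-5p: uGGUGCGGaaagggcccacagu
mmu-miR-675-3p: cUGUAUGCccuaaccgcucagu
mmu-miR-483-5p: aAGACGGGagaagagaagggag
mmu-miR-483-3p: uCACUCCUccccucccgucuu
mmu-miR-335-5p: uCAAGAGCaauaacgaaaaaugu
mmu-miR-335-3p: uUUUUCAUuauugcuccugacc
mmu-miR-770-5p: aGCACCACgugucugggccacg
mmu-miR-770-3p: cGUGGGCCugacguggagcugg
The 8 mature forms have 8 distinct seeds. The rows of the hairpins themselves held 0 counts in all 12 libraries for Mir675 and Mir770, 2 to 11 counts per library for Mir483 and 22 to 97 for Mir335, and none of these rows is used below. The Mir675 and Mir770 hairpins lie in exons of H19 and Meg3, where their host had 24013 to 80574 and 965 to 2625 counts per library.

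The clearest difference among the 10 genes was between stages. From E9.0 to E9.5 Cdkn1c, Plagl1, Dlk1 and Igf2r rose in both genotypes, by 1.64-fold to 3.89-fold, while Meg3 and Peg3 passed the test in neither. In heterozygous libraries 5 of 10 members were called higher and 0 lower by edgeR's quasi-likelihood test (adjusted p threshold 0.05 over 14810 genes), where 19.2% of all tested genes were called higher and 16.0% lower. In homozygous libraries 8 of 10 were called higher and 0 lower, against 19.6% and 15.8% of all tested genes. At an unadjusted p under 0.05 the members past the threshold were also 5 and 8, 0 of them lower, where 23.6% and 24.3% of all genes were higher and 20.6% and 20.4% lower. DESeq2 called the same 5 and 8 members, where it called 18.2% and 18.6% of the genes it gave an adjusted p higher and 17.3% and 17.0% lower. The median change of the 10 was 0.19 in heterozygous and 0.40 in homozygous libraries on the log2 scale, beside 0.01 over all tested genes in each. Of all called genes 54.4% and 55.3% were higher at E9.5; with total counts as the only scaling these shares were 96.4% and 87.1%, and the median of all genes moved to 0.38 and 0.18, so changes are given relative to that median, as TMM does. No difference between the genotypes in the stage change was called for any of the 10 (0 of 10 with edgeR, beside 0.0675% of all genes, and 0 with DESeq2, beside 0.531%), and 1 of 10 had an unadjusted p under 0.05, beside 8.60% of all genes.

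Cdkn1c, the p57 inhibitor of cyclin-dependent kinases (chromosome 7, 143458339 to 143461050, minus strand, GRCm38), had the largest change relative to its standard error among the 10, in both genotypes. It lay at 108, 103 and 83.6 CPM in heterozygous E9.0 replicates 1 to 3 and at 287, 269 and 285 CPM in those of E9.5. In homozygous libraries it lay at 116, 111 and 112 CPM at E9.0 and at 292, 305 and 319 CPM at E9.5. All 6 late libraries stood above all 6 early ones. The log2 change was 1.52 ± 0.08 in heterozygous and 1.43 ± 0.08 in homozygous libraries (SE; edgeR adjusted p 3.5e-09 and 4.8e-09). In GENCODE M21 30.7% of its exonic bases are also covered by an antisense gene that has no row in the table, and the strand setting of the counting was not stated.

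Plagl1, a zinc finger transcription factor known as an activator of other imprinted genes (chromosome 10, 13060504 to 13131694, plus strand), was the lowest member at E9.0 and had the largest fitted changes. Its levels were 26.3, 25.2 and 15 CPM in heterozygous E9.0 replicates 1 to 3 and 69.5, 60.5 and 64.5 CPM at E9.5. The homozygous values were 28.4, 17.5 and 18.2 CPM at E9.0 and 78.3, 80.1 and 89.0 CPM at E9.5. The stages did not overlap in either genotype, and the E9.0 groups varied more among themselves (28.1% and 28.6% coefficient of variation) than the E9.5 groups (6.95% and 6.96%). The log2 change was 1.57 ± 0.21 in heterozygous and 1.96 ± 0.22 in homozygous libraries (SE; edgeR adjusted p 3.0e-04 and 7.5e-05).

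Dlk1, the Notch-like protein at the paternal end of the Dlk1-Meg3 cluster (chromosome 12, 109452823 to 109463336, plus strand), changed by a similar size. It was measured at 51.4, 49.3 and 34.1 CPM in heterozygous E9.0 replicates 1 to 3 and at 135, 93.1 and 121 CPM at E9.5. In homozygous libraries it was at 57.0, 36.3 and 47.8 CPM at E9.0 and at 118, 127 and 141 CPM at E9.5. Again the lowest late library stood above the highest early one, in both genotypes. The log2 change was 1.38 ± 0.21 and 1.46 ± 0.21 (SE; edgeR adjusted p 6.5e-04 and 4.8e-04). Meg3, the maternally expressed noncoding RNA of the same cluster (chromosome 12, 109541001 to 109571726, plus strand), did not follow it: the means were 77.0 ± 15.2 and 62.5 ± 3.52 CPM in heterozygous and 72.3 ± 10.1 and 65.9 ± 17.2 CPM in homozygous libraries, the earlier stage named ahead of the later (SD, n = 3 each). Its log2 changes of -0.30 ± 0.20 and -0.13 ± 0.21 (SE) did not pass the threshold, and its libraries overlapped. Of 2 further noncoding RNAs downstream of Meg3, Rian was called higher in both genotypes (0.31 ± 0.08 and 0.40 ± 0.08, SE), and Mirg was called lower in homozygous libraries only (-0.38 ± 0.11 against -0.24 ± 0.10 in heterozygous, SE), a difference between genotypes that was not called (edgeR adjusted p 0.832). With total counts only the Mirg call was lost (-0.21, adjusted p 0.370).

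Igf2r, the maternally expressed receptor that clears Igf2 (chromosome 17, 12682406 to 12769664, minus strand), rose to a lesser extent. Its levels were 360.0, 350.2 and 325 CPM in heterozygous E9.0 replicates 1 to 3 and 576, 624 and 502 CPM at E9.5. The homozygous levels were 379, 342 and 387 CPM at E9.0 and 623, 755 and 601 CPM at E9.5. No early library reached the lowest late one. The log2 change was 0.72 ± 0.09 and 0.84 ± 0.09 (SE; edgeR adjusted p 2.5e-05 and 5.6e-06). Airn, the noncoding RNA that runs antisense to Igf2r from within it, stayed at 3.61 to 5.55 CPM over all libraries and was not called (0.07 ± 0.18 and 0.10 ± 0.19 on the log2 scale, SE). The calls of Cdkn1c, Plagl1, Dlk1 and Igf2r were kept in both genotypes under all 13 alternative settings, among them the Rn45s row left out and total counts only, and without any 1 of the 6 libraries compared.

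**Figure D2:**
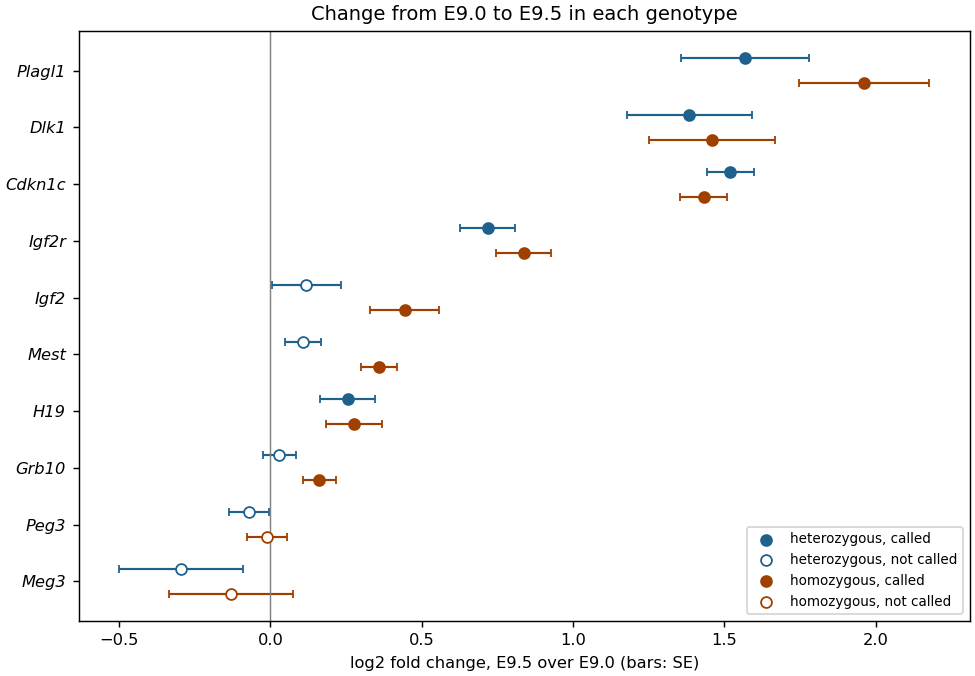
Log2 fold change from E9.0 to E9.5 of the 10 genes in heterozygous (blue) and homozygous (brown) libraries, with bars of 1 SE; filled points passed an adjusted p of 0.05 in edgeR. Plagl1, Dlk1, Cdkn1c and Igf2r lie between 0.72 and 1.96, and the other genes between -0.30 and 0.44.

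For 3 of these genes a promoter window was at hand, the 250 bases before the annotated start in RefSeq (GRCm38.p6). They are shown because these members rose together, with CpG dinucleotides, the sites of DNA methylation, in capitals, 5′ to 3′ on the gene's strand. The Dlk1 window is chr12:109452573-109452822 (plus strand), the Plagl1 window chr10:13090582-13090831 (plus strand) and the Igf2r window chr17:12769707-12769956 (minus strand).
Dlk1: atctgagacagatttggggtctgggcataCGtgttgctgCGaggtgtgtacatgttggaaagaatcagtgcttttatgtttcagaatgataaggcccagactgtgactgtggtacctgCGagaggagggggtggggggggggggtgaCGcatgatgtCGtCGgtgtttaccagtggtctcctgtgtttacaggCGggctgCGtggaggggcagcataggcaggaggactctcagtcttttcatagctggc
Plagl1: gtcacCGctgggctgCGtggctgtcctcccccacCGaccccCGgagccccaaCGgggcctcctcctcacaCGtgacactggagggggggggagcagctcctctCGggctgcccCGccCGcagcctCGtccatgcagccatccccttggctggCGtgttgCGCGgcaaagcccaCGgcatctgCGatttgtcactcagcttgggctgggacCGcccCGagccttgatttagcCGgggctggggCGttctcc
Igf2r: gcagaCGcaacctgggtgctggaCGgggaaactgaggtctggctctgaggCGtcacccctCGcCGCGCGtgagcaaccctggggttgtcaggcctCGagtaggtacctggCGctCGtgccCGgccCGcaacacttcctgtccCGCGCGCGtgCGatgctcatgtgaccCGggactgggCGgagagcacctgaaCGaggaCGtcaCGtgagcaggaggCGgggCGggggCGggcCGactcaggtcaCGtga
They hold 8, 19 and 27 CpG dinucleotides, against a median of 6 over 32851 windows of the same length, of which 57.0%, 80.3% and 91.4% held fewer. A window was listed for 8 of the 10 genes, 15 windows in all. Those not printed held from 0 (Meg3) to 40 (Grb10) CpG dinucleotides. Of 5 motifs searched on both strands, the E-box CACGTG occurred in the printed Igf2r and Plagl1 windows (6.02% of all windows), and none of the 5 occurred in that of Dlk1. TATAAA was found for Meg3 (12.4% of all windows), GGGGCCCC for Peg3 (0.89%), the p53 half-site in 1 of 4 Igf2 windows (7.13%), and AGATAA for no member (9.99%). These are matches of letters, not sites of binding.

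The remaining members changed little between stages. H19 (chromosome 7, 142575529 to 142578143, minus strand) was called higher in both genotypes, by 0.25 ± 0.09 and 0.28 ± 0.09 on the log2 scale (SE; edgeR adjusted p 0.0413 and 0.0285). Heterozygous libraries overlapped between stages and homozygous ones did not. The heterozygous call was lost under 6 of 13 alternative settings (0.21 to 0.26, adjusted p 0.0516 to 0.106) and the homozygous call under none of the 13. Leaving out 1 library, the heterozygous call was lost without E9.0 replicate 2 or 3 or E9.5 replicate 1 or 3 (0.16 to 0.24) and the homozygous call without any 1 E9.0 library or E9.5 replicate 3 (0.25 to 0.29), and without heterozygous E9.5 replicate 2 the change was 0.39. Igf2 (chromosome 7, 142650766 to 142666816, minus strand) had a change of 0.12 ± 0.11 in heterozygous libraries, not called, and of 0.44 ± 0.11 in homozygous libraries (SE; edgeR adjusted p 0.00793), and Mest (chromosome 6, 30723547 to 30748465, plus strand) changed by 0.11 ± 0.06 and 0.36 ± 0.06 (SE; edgeR adjusted p 0.182 and 2.2e-04). Without 1 library the heterozygous change ran from 0.015 (without E9.0 replicate 3) to 0.23 (without E9.5 replicate 2) for Igf2 and from 0.068 to 0.17 for Mest, which passed without E9.5 replicate 2 (adjusted p 0.0373). The difference between genotypes was 0.32 ± 0.16 for Igf2 and 0.25 ± 0.08 for Mest (SE), and neither was called (edgeR adjusted p 0.607 and 0.399). Grb10 (chromosome 11, 11930508 to 12038683, minus strand) lay at 1165 to 1393 CPM in all libraries. It was called in homozygous libraries only, at 0.16 ± 0.05 against 0.03 ± 0.05 in heterozygous (SE; difference 0.13 ± 0.08, adjusted p 0.672), and this call was lost without homozygous E9.0 replicate 3 or any 1 homozygous E9.5 library (0.13 to 0.17), with total counts only (0.33, adjusted p 0.102) and with only the groups compared (0.16, adjusted p 0.0535). Peg3 (chromosome 7, 6703892 to 6730431, minus strand), at 501 to 593 CPM in every library, had changes of -0.07 ± 0.07 and -0.01 ± 0.07 (SE), not called.

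Markers of several tissues moved with stage as well. All 7 heart muscle markers were called higher at E9.5 in both genotypes, and their summed level was 64.4 to 222 CPM in heterozygous E9.0, 109 to 330 in homozygous E9.0, 1883 to 2542 in heterozygous E9.5 and 2255 to 3008 CPM in homozygous E9.5 libraries. All 7 erythroid markers were called higher too, from 537 to 1173 CPM in sum at E9.0 to 2788 to 5197 at E9.5. None of these markers was at 0 in all 3 libraries of a group. Of 8 neuron and ganglion markers 7 were called higher in heterozygous and 6 in homozygous libraries, and their sum went from 80.6 to 84.7 CPM at E9.0 to 175 to 207 CPM in heterozygous and 141 to 149 CPM in homozygous E9.5 libraries. Migrating crest markers fell, with 6 of 7 tested called lower in heterozygous and 5 of 7 in homozygous libraries, from 242 to 314 CPM down to 156 to 189. Of 10 endothelial markers 6 were called lower in heterozygous libraries, and 2 higher and 1 lower in homozygous ones. Of 10 mesenchyme markers 3 were called higher and 1 lower in heterozygous libraries and 2 higher in homozygous ones, the collagens Col1a1 (1.25 and 1.53 on the log2 scale) and Col3a1 (1.24 and 1.87) being higher in both. Yolk sac endoderm markers summed to 4.54 to 30.1 CPM and trophoblast markers to 0.51 to 2.76 CPM in all libraries. Within the E9.0 groups the libraries with the lowest and highest heart muscle sums were heterozygous replicate 3 at 64.4 and homozygous replicate 1 at 330 CPM. They were also those with the lowest and highest Plagl1, Dlk1, Igf2 and Cdkn1c in all 6 libraries. The other members did not follow this at the high end: H19 and Igf2r were highest in homozygous replicate 3, and Meg3, Peg3, Grb10 and Mest in heterozygous replicate 1. At the low end, heterozygous replicate 3 was also the lowest for H19, Igf2r, Meg3 and Peg3, whereas Grb10 and Mest were lowest in homozygous replicate 3. The part of these markers in the stage changes of the imprinted genes was not tested.

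By genotype the differences were small. Averaged over both stages, H19 was 1.27-fold higher in homozygous libraries, and it was the only 1 of the 10 members to pass the test, where 2.96% of all tested genes were called and 1.82% called higher. At E9.0 alone 0 of 10 members were called, beside 0.587% of all genes, and 3 of 10 had an unadjusted p under 0.05, beside 13.3%. At E9.5 alone 0 of 10 were called, beside 1.89%, and again 3 of 10 had an unadjusted p under 0.05, beside 13.4%. DESeq2, which called more genes in all, called 1 of 10 at E9.0, beside 1.62%, 2 at E9.5, beside 3.22%, and 2 in the average, beside 4.34%. The 10 members had a median log2 change of 0.02 in the earlier and 0.13 in the later comparison, beside -0.0043 and -0.0026 over all genes, with 5 and 10 of the 10 positive. Of all genes called at E9.0, at E9.5 and in the average, 73.6%, 62.9% and 61.5% were higher in homozygous libraries; with total counts only these shares were 96.2%, 47.2% and 84.7%, with a median shift of 0.19 at E9.0. Homozygous libraries lay wholly above heterozygous ones for 2 members at E9.0 (H19 and Cdkn1c), as for 9.07% of all genes, and wholly below for 1 (Mest), as for 8.20%. At E9.5 they lay wholly above for 5 members (H19, Igf2, Cdkn1c, Grb10 and Plagl1), as for 11.4% of all genes.

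H19 was measured at 1762, 1610.1 and 1587 CPM in heterozygous E9.0 replicates 1 to 3 and at 2023, 2109 and 2139.9 CPM in homozygous replicates 1 to 3. At E9.5 the heterozygous libraries gave 2216, 1598 and 2103 CPM and the homozygous ones 2473, 2473 and 2647 CPM. The genotypes did not overlap at either stage (exact two-sided permutation p 0.1 each, the smallest that 3 against 3 allows), and heterozygous E9.5 replicate 2 stood at the E9.0 level. The log2 difference came to 0.34 ± 0.09 (E9.0) and 0.36 ± 0.09 (E9.5), neither called (SE; edgeR adjusted p 0.126 and 0.0614), and 0.35 ± 0.06 in the average (SE; edgeR adjusted p 0.00782). The call in the average was kept under all 12 alternative settings and without any 1 of the 12 libraries (0.29 to 0.40, adjusted p up to 0.0316). At E9.5 alone the difference passed without heterozygous replicate 1 (0.45, adjusted p 0.0232) and was 0.23 without heterozygous replicate 2 (adjusted p 0.119). The difference between stages was 0.02 ± 0.13 (SE; edgeR adjusted p 0.984).

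Igf2, the neighbour of H19 in the cluster, did not pass the threshold for genotype with the settings used throughout and did with some others. Its levels were 531, 466 and 395 CPM in heterozygous E9.0 replicates 1 to 3, 559.5, 461 and 487 CPM in homozygous E9.0, 566, 424 and 519 CPM in heterozygous E9.5 and 677, 676 and 696 CPM in homozygous E9.5 libraries. The genotypes overlapped at E9.0 and were apart at E9.5. The log2 difference came to 0.12 ± 0.11 for E9.0 and 0.44 ± 0.11 for E9.5 (SE; edgeR adjusted p 0.702 and 0.0721), 0.28 ± 0.08 in the average (adjusted p 0.0882). At E9.5 it passed under 4 of 13 alternatives, DESeq2 (0.44, adjusted p 0.00627), limma-voom (0.45, adjusted p 0.0405) and edgeR with the replicate number as a block, without and with a GC and length offset (0.45 and 0.43, adjusted p 0.0218 and 0.0147), and without heterozygous replicate 1 (0.54, adjusted p 0.0342). In the average it passed under 4 of 12, among them the block (0.28, adjusted p 0.0321), and without heterozygous E9.5 replicate 1 (0.33, adjusted p 0.0380). Over the fits without 1 library the difference ran from 0.34 to 0.54 at E9.5 (edgeR adjusted p 0.0342 to 0.191). In the average these fits gave 0.23 to 0.33 (edgeR adjusted p 0.0380 to 0.171). At E9.0 it was 0.0099 without heterozygous replicate 3 and 0.22 without heterozygous replicate 1. A same-strand gene model absent from the table covers 62.8% of the exonic bases of Igf2 in GENCODE M21, so reads there may have been assigned differently.

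Among the growth inhibitors, Cdkn1c differed between genotypes by 0.21 ± 0.08 (E9.0) and 0.12 ± 0.08 (E9.5) on the log2 scale, and Igf2r 0.10 ± 0.09 and 0.22 ± 0.09 (SE), with edgeR adjusted p from 0.262 to 0.676. Without 1 library Cdkn1c ran from 0.10 (without heterozygous replicate 3) to 0.28 at E9.0, and Igf2r from 0.055 (without heterozygous replicate 3) to 0.15 (without homozygous replicate 2) at E9.0 and from 0.11 (without homozygous replicate 2) to 0.29 at E9.5, none of them called. Neither was called in the average either (0.17 ± 0.05, adjusted p 0.120, and 0.16 ± 0.06, adjusted p 0.216, SE); without heterozygous E9.0 replicate 1, the library rich in Rn45s, Cdkn1c and Igf2 passed there (0.20 and 0.33, adjusted p 0.0454 and 0.0382). Grb10 differed by -0.05 ± 0.05 and 0.08 ± 0.05 (SE), not called. Mest was lower in homozygous libraries of E9.0, with 1492 to 1619.8 CPM in heterozygous and 1351 to 1415 CPM in homozygous libraries (-0.16 ± 0.06, SE, adjusted p 0.267), and overlapped at E9.5 (0.09 ± 0.06, SE); with total counts only the E9.0 value was 0.04 where the median of all genes was 0.19. Copg2 overlaps Mest on the opposite strand over 23.1% of the exonic bases of Mest, lay at 74.7 to 103 CPM and was not called in any comparison. Plagl1 had 0.35 ± 0.19 at E9.5 (SE, adjusted p 0.505) with groups that did not overlap, and Dlk1, Meg3 and Peg3 overlapped between genotypes at both stages, with log2 differences from -0.09 to 0.14.

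**Figure D3:**
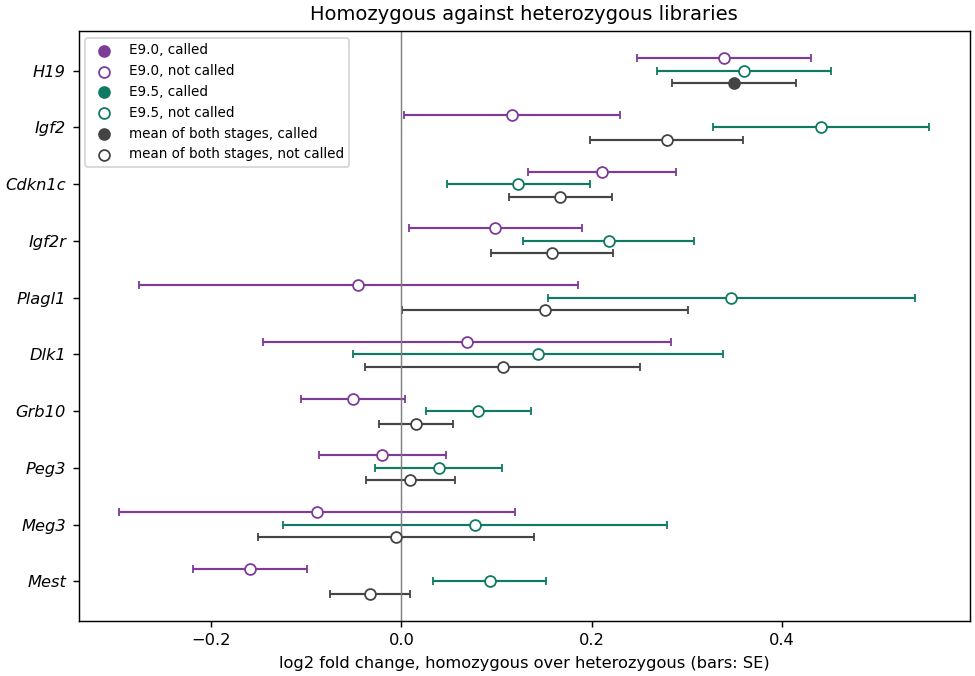
Log2 fold change of homozygous over heterozygous libraries for the 10 genes at E9.0 (purple), at E9.5 (green) and averaged over both stages (black), with bars of 1 SE; filled points passed an adjusted p of 0.05 in edgeR. H19 lies at 0.34 to 0.36 in all 3 comparisons and is filled in the average alone; Igf2 lies at 0.12 at E9.0 and 0.44 at E9.5.

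Vessel and heart muscle markers had genotype differences of the same sign as H19 and Igf2. All 10 endothelial markers had positive log2 differences at both stages, 0 of 10 were called at E9.0 and 8 of 10 at E9.5, and their summed level was 282 to 303 CPM in heterozygous E9.0, 331 to 344 in homozygous E9.0, 183 to 258 in heterozygous E9.5 and 328 to 369 CPM in homozygous E9.5 libraries. These sums did not overlap between genotypes at either stage, and no endothelial marker was at 0. Heterozygous E9.5 replicate 2 was the lowest library of all 12 in endothelial sum, at 183 CPM, and the lowest of its group in H19 and Igf2. It was also low in the 10 mesenchyme markers, at 542 CPM against 1083 and 1099.7 in the other 2 libraries of its group and 914 to 1282 in homozygous E9.5. At E9.0 the mesenchyme sums overlapped between genotypes (567 to 662 and 579 to 601 CPM), and 1 of the 10 mesenchyme markers was called in the average. Sums of surface ectoderm and pharyngeal endoderm markers were also without overlap, at 267 to 320 against 331 to 357 CPM at E9.0 and 264 to 309 against 311 to 371 at E9.5. Of these markers Epcam (0.31) and Pax9 (0.94) were called higher at E9.5, and both and Krt8 in the average. Trp63 and Nkx2-1 had negative differences at E9.0 (-0.22 and -0.10) and Trp63 and Wnt6 at E9.5 (-0.08 and -0.19), none of them called. All 7 heart muscle markers had positive differences at both stages, of which Nkx2-5, a cardiac transcription factor, was called at E9.5 (0.62, adjusted p 0.0444) and in the average (0.54, adjusted p 0.0235) by edgeR. Neuron and ganglion sums were lower in homozygous libraries without overlap at both stages (82.4 to 84.7 against 80.6 to 80.8 CPM at E9.0), with 0 of 8 markers called at E9.0 and 2 called lower at E9.5. Of 7 migrating crest markers 1 was called lower at E9.0 (Tfap2b, -0.78, edgeR adjusted p 7.7e-04) and 4 at E9.5, and their sums were 296 to 314 against 242 to 272 CPM at E9.0 and overlapped at E9.5. Of 7 erythroid markers 1 had a positive difference at E9.0 and 0 at E9.5, and of 7 neural progenitor markers 3 at each stage. Of 5 yolk sac endoderm markers tested 1 was positive at E9.0 and 2 at E9.5, and of 2 trunk markers tested 2 at each stage. None of these 4 lists had a called marker at either stage. The part of all these markers in the H19 and Igf2 differences was not tested.

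**Figure D4:**
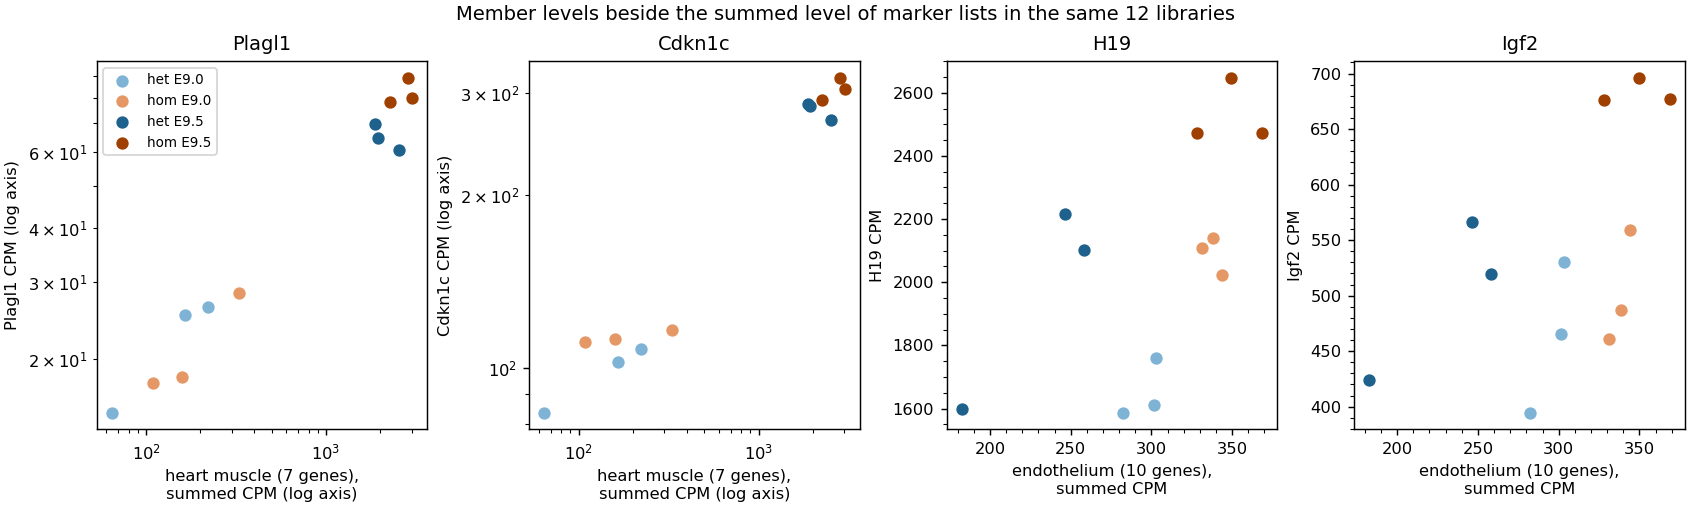
Plagl1 and Cdkn1c CPM against the summed CPM of 7 heart muscle markers (both axes log) and H19 and Igf2 CPM against that of 10 endothelial markers (linear axes that do not start at 0), 1 point per library. The stages separate on both axes in the heart muscle panels, and in the endothelial panels the homozygous libraries lie at 328 to 369 CPM and heterozygous E9.5 replicate 2 at 183 CPM.

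Ratios of 2 genes within a library do not depend on the scaling of libraries, and 3 were formed from the counts. The ratio of H19 to Igf2 counts ranged from 3.32 to 4.58 over the 12 libraries. Homozygous libraries differed from heterozygous ones in its log2 by 0.22 (E9.0) and -0.08 (E9.5), and overlapped at both stages (exact two-sided permutation p 0.2 each). The ratio of Meg3 to Dlk1 counts fell with stage, while per kilobase Dlk1 was above Meg3 in all 4 groups: there were 1.36 to 1.87 Meg3 counts per Dlk1 count in the 6 E9.0 libraries and 0.40 to 0.71 in the 6 E9.5 libraries. The log2 ratio fell by 1.66 in heterozygous and by 1.63 in homozygous libraries, with no overlap (exact two-sided permutation p 0.1 each, the smallest possible). The ratio of Igf2, the ligand, to Igf2r, its clearance receptor, went from 1.21 to 1.47 counts at E9.0 down to 0.68 to 1.16 at E9.5. Its log2 fell by 0.59 in heterozygous and by 0.38 in homozygous libraries without overlap (exact two-sided permutation p 0.1 each). Neither of these 2 ratios differed by more than the spread of libraries between genotypes (exact permutation p 0.4 and 0.7 at E9.0 and 0.7 and 0.4 at E9.5, for Meg3 over Dlk1 and Igf2 over Igf2r). With 3 ratios and 4 comparisons each, 12 such tests were made, and adjusted over these 12 none can pass 0.05 in this design.

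**Figure D5:**
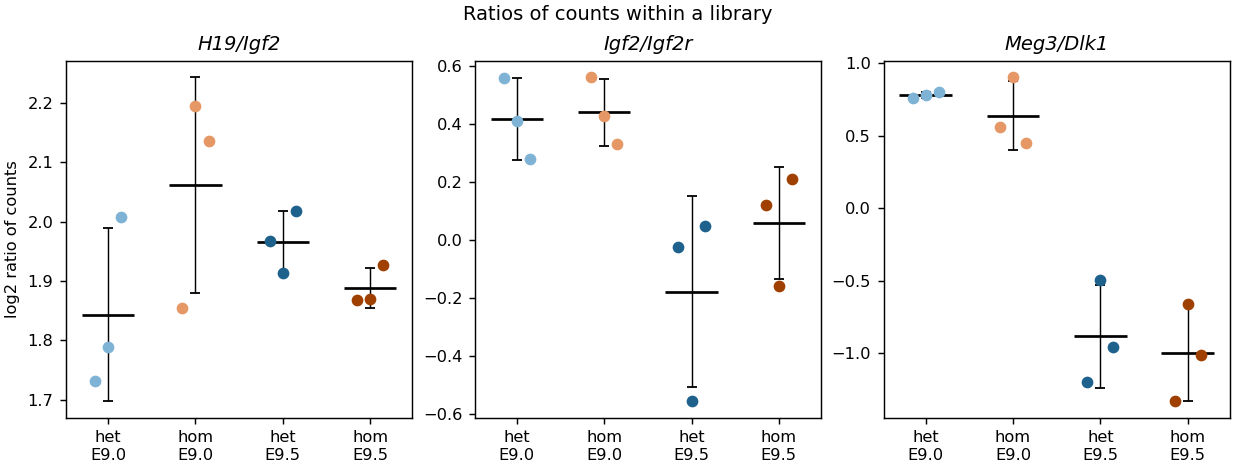
Log2 of the ratio of counts of 2 genes in each library (points) with group means and SD (n = 3), for H19 over Igf2, Igf2 over Igf2r and Meg3 over Dlk1; the axes do not start at 0. Meg3 over Dlk1 lies above 0 in all E9.0 and below 0 in all E9.5 libraries, while H19 over Igf2 overlaps in every comparison.

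Other imprinted genes and the partners of these members were read from 5 lists. Beside the counts of each list stand the shares of all tested genes. With stage 19.2% were called higher and 16.0% lower in heterozygous libraries, and 19.6% and 15.8% in homozygous ones. Between genotypes 0.587% were called at E9.0, 1.89% at E9.5 and 2.96% in the average. Of 22 other paternally expressed genes 19 passed the low-count filter, and 0 were called between genotypes at E9.0, at E9.5 or in the average. With stage 3 were called higher and 4 lower in heterozygous libraries and 2 higher and 2 lower in homozygous ones, with Sgce as the largest called rise (0.39 and 0.53 on the log2 scale) and Magel2 as the largest called fall (-0.50 and -1.02). Of 21 other maternally expressed genes 19 passed the filter and 0 were called between genotypes. With stage 4 were called higher and 2 lower in heterozygous and 5 higher and 2 lower in homozygous libraries. Among them were Asb4 (0.71 and 0.95), Zim1 (0.42 and 1.10) and, as the largest called fall, Slc22a3 (-0.9998 and -1.27). Phlda2, Kcnq1ot1 and Copg2, neighbours of Cdkn1c or Mest, were not called in any comparison. Kcnq1, another neighbour of Cdkn1c, was called higher with stage in homozygous libraries (0.93 ± 0.30, SE; edgeR adjusted p 0.0222) and not in heterozygous ones (0.28 ± 0.32, SE). It lay at 0.39 to 1.62 CPM, and no genotype difference of it was called. The median stage change of the paternally expressed list was -0.06 and 0.15 and that of the maternally expressed list 0.05 and 0.11, beside 0.01 over all genes. In heterozygous libraries the Magel2 call was lost without E9.0 replicate 1 or E9.5 replicate 2 or 3 (-0.36 to -0.51). The Asb4 call was lost there without E9.0 replicate 1 or 3 or E9.5 replicate 1 or 3 (0.50 to 0.68), and the Zim1 call without E9.0 replicate 3 or any 1 E9.5 library (0.21 to 0.46). The Slc22a3 call was lost there without any 1 library other than E9.5 replicate 3 (-1.09 to -0.85). These heterozygous calls were also lost under 3 of 13 alternative settings for Magel2 (-0.11 with total counts only, adjusted p up to 0.635), 4 for Asb4 (0.67 to 0.73, adjusted p up to 0.0841) and 3 for Zim1 (0.41 to 0.42, adjusted p up to 0.0701), and under 6 of the 11 that tested it for Slc22a3 (-1.02 to -0.64, adjusted p up to 0.220). In homozygous libraries the calls of these 4 genes were kept without any 1 library and under the settings that tested them, except that of Slc22a3 with total counts only (-1.11, adjusted p 0.0571).

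Of 25 genes of the IGF axis, which holds ligands, receptors, binding proteins and downstream kinases, 22 passed the filter. Igfbp5, a secreted IGF-binding protein, was the only 1 called between genotypes: it was at 503 ± 33.7 CPM in heterozygous and 692 ± 71.8 CPM in homozygous E9.5 libraries (SD, n = 3 each), a log2 difference of 0.46 ± 0.09 (SE; edgeR adjusted p 0.0152), and 0.29 ± 0.06 in the average (adjusted p 0.0210). The E9.5 call was lost without heterozygous replicate 2 or homozygous replicate 2 or 3 (0.40 to 0.44) and with total counts only (0.45, adjusted p 0.248), and the average in 5 of 12 such fits (0.26 to 0.30). Igf1r, the signalling receptor of the ligands, was at 178 to 211 CPM in all libraries and was called in no comparison, and Igf1 was not called either. With stage 3 genes of this list rose and 6 fell in heterozygous and 5 rose and 5 fell in homozygous libraries. Irs4, an adaptor of the insulin receptor family, fell by 1.002 and 0.874, Igf2bp1, an RNA-binding protein named for Igf2 transcripts, by 0.42 and 0.28, calls that were lost with total counts only (-0.053 and -0.11, adjusted p 0.775 and 0.655), and Igfbp2 rose by 0.52 and 0.33, a call that was lost in homozygous libraries without E9.0 replicate 1 or E9.5 replicate 3 (0.27 and 0.24).

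Of 16 genes of the G1 phase of the cell cycle 14 passed the filter, and Cdkn1a, the p21 inhibitor and a relative of Cdkn1c, was the only 1 called between genotypes. It was at 2.35 to 3.57 CPM in heterozygous and 12.9 to 30.9 CPM in homozygous E9.0 libraries and at 5.33 to 6.16 and 12.1 to 13.2 CPM at E9.5, log2 differences of 2.80 ± 0.29 and 1.11 ± 0.24 (SE; edgeR adjusted p 3.7e-04 and 0.0400). The E9.0 call was kept without any 1 library, the E9.5 call was lost without any 1 of its 6 libraries (1.05 to 1.15, adjusted p up to 0.133) and without a filter (1.11, adjusted p 0.115), and the difference between stages was not called (-1.69 ± 0.38, SE; adjusted p 0.185). Cdkn1c, described above, had no called genotype difference. With stage 6 genes of this list rose and 1 fell in heterozygous and 7 rose and 2 fell in homozygous libraries, with Cdkn2c at 0.95 and 1.19. Cdkn1a was called higher with stage in heterozygous (0.96 ± 0.30) and lower in homozygous libraries (-0.73 ± 0.23, SE; edgeR adjusted p 0.0247 and 0.0297). Each of these calls was lost in 4 of 6 fits without 1 library (0.85 to 0.94 and -0.76 to -0.32, the last without E9.0 replicate 3) and under 2 and 3 of 13 alternative settings. Of 14 genes that set or keep imprints 12 passed the filter and 0 were called between genotypes. With stage 2 rose and 5 fell in heterozygous and 2 rose and 4 fell in homozygous libraries. Dnmt3b, a de novo DNA methyltransferase, fell by 1.04 and 0.99, and Dnmt3a, its relative, rose by 0.30 and 0.56.

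For each member the 3 tested genes with the most similar profile were found by Pearson's r of log2 CPM over the 12 libraries, which differ mainly by stage. These are given as a description, and libraries of a group are not independent points of a trend. For Cdkn1c they were Myl3, Smarcd3 and Pln (r 0.995 to 0.996), for Plagl1 Slc8a1, Kcnh2 and Hspb7 (0.992 to 0.993), for Igf2r Flnc, Thbs4 and Dsp (0.976 to 0.990) and for Dlk1 Dok4, Frmd4b and Bmp4 (0.988 to 0.992). Myl3, Pln and Hspb7 are known as genes of muscle. For H19 they were Fstl1, Col13a1 and Ebf1 (0.934 to 0.962) and for Igf2 Col6a1, Gja5 and Nhsl2 (0.942 to 0.956), of which Col6a1 encodes a collagen of connective tissue and Gja5 a gap junction protein of arteries and atria. For Mest they were Ilk, AU040320 and Prr13 (0.948 to 0.964). The 2 members that passed no test had the loosest neighbours, Asxl2, Mutyh and Ttc17 for Meg3 (0.880 to 0.898) and Hoxb1, 4632428N05Rik and Hoxb2 for Peg3 (0.793 to 0.815).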

How the data were processed

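RNA from 12 libraries was measured as read counts per gene. The authors deposited raw counts, whole numbers summing to a different total in each library, for 24421 gene symbols; per the submitters' processing notes cutadapt, STAR and featureCounts were used with mm10, and versions, annotation and strand setting are not given in the sources used here. All columns were matched to samples. Genes were filtered with filterByExpr by group (14810 kept, 9611 left out) and tested on all 12 libraries in R 4.3.3 with edgeR 4.0.16 (robust quasi-likelihood F test, TMM factors, 1 mean per group), two-sided, with Benjamini-Hochberg adjustment over the 14810 genes and a threshold of 0.05. The common biological coefficient of variation was 8.77%. Single genes and ratios of counts were also tested by exact permutation. The procedure was tested on simulated counts.

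Gene models, lengths and overlaps came from GENCODE M21 (GRCm38), in which 23376 symbols matched directly, 678 through a synonym and 367 not at all. Levels per kilobase use the union of exons. Alternatives were other scalings, DESeq2 1.42.0, limma 3.58.1 (voom), other filters and dispersions, Rn45s left out, a replicate block, a GC and length offset, the compared groups alone, and each library left out in turn.

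The members, the 5 gene lists and the 11 marker lists were chosen with earlier results of these data known. Named are all members, Eftud2, list genes called between genotypes, examples from the 3 largest called rises and falls with stage per list, and 3 genes of similar profile per member (those of Grb10 are not reported here). Airn, Rian, Copg2, Phlda2, Kcnq1ot1, Igf1, Igf1r, Igf2bp1 and Dnmt3a were named for their place or role, with values known.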

Additional observations from a re-analysis of the deposited data

How the results depend on the processing

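Limits: with 3 libraries a group, Plagl1, Dlk1 and Meg3 had the widest errors. The lowest count of a member was 269 in a library. Label fields named different materials, and the number of embryos and the strand setting were not stated.

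The genotype difference of H19 averaged over both stages kept its direction and call under all alternatives (0.33 to 0.45). At E9.0 H19 passed with DESeq2 (0.34) and with only the groups compared (0.35), so that 1 member was called in each, against 0. The number of all genes called at E9.0 was 87 with the settings used throughout and 51 to 203 over the alternatives, the most with DESeq2. At E9.5 it passed with DESeq2 (0.36), limma-voom (0.37), no filter (0.36), the GC and length offset (0.36) and the replicate block with that offset (0.37). Members called at E9.5 were 2, 2, 1, 1 and 2 in these fits, Igf2 being the other, 1 with the replicate block alone (Igf2, 0.45) and 1 with only the groups compared (Plagl1). All genes called at E9.5 numbered 280 with the settings used throughout and 123 to 449 over the alternatives, the most with DESeq2. In the average 2 members (H19 and Igf2) were called with total counts only, DESeq2, the replicate block and the replicate block with the offset. Of all genes 439 were called there, with 354 (total counts only) to 705 (GC and length offset) over the alternatives. With stage 8 members were called in heterozygous libraries with total counts only, against 5, and 4 in the 6 fits that ended the H19 call (RLE factors, limma-voom, dispersions not robust, the offset with and without the block, and only the groups compared). Total counts only called 6979 of all genes there, against 5216, and 96.4% of the called genes were higher at E9.5, against 54.4%. In homozygous libraries 7 were called, against 8, with total counts only and with only the groups compared, Grb10 being lost in both. There total counts only called 3325 of all genes, against 5238, and 87.1% of the called genes were higher at E9.5, against 55.3%. Without 1 library, members called ranged from 0 to 2 at E9.5 and from 1 to 3 in the average, and H19 at E9.5 from 0.23 (without heterozygous replicate 2) to 0.45 (without heterozygous replicate 1). All genes called in these fits ranged from 133 to 252 at E9.5 and from 246 to 411 in the average.

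Signs turned only for results that were not called with the settings used throughout. Of these, the heterozygous stage change of Grb10 passed with total counts only (0.41, edgeR adjusted p 0.0239). With total counts only, at E9.0 Meg3 was 0.12, Peg3 0.18, Grb10 0.15, Plagl1 0.17 and Mest 0.043, where the median of all genes was 0.19; with stage Meg3 was 0.093 and Peg3 0.31 in heterozygous (median 0.38) and 0.041 and 0.16 in homozygous libraries (median 0.18). Peg3 at E9.0 was 0.0067 with upper-quartile factors, 0.052 with the GC and length offset and 0.054 with block and offset, and its homozygous stage change was 0.027 without a filter. Without 1 library, at E9.0 Dlk1 ran from -0.11 to 0.23, Meg3 from -0.25 to 0.0052, Peg3 from -0.063 to 0.012 and Plagl1 from -0.30 to 0.087, and at E9.5 Meg3 from -0.092 to 0.28 and Peg3 from -0.0076 to 0.10. Likewise the heterozygous stage change of Grb10 ran from -0.0031 to 0.069, the homozygous ones of Meg3 from -0.30 to 0.069 and of Peg3 from -0.040 to 0.032, and the genotype differences of the log2 ratios Meg3 over Dlk1 at E9.5 from -0.28 to 0.078 and Igf2 over Igf2r at E9.0 from -0.046 to 0.095. The cause of these turns was not tested.

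Over all genes 87 were called at E9.0 (38 to 203 over the alternatives and left-out libraries), 280 at E9.5 (123 to 449), 439 in the average (246 to 705), 10 for the difference between stages (1 to 74), 5216 with stage in heterozygous (4084 to 6979) and 5238 in homozygous libraries (3325 to 5948). Same-numbered libraries of the 2 genotypes deviated together only weakly (r 0.03 to 0.11 at E9.0 and 0.03 to 0.07 at E9.5), so the libraries share a number and the replicate block is given here as an alternative. Apart from Igf2 (E9.5 and average) it changed no call of a member.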
